A study of Homo sapiens with 9 samples.

Results

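Small A islands inside B blocks are short stretches of the open compartment that lie alone within long stretches of the closed one. They were chosen by the compartment score of growing IMR90 fibroblasts. The balanced Hi-C signal was summed to bins of 120 kb and averaged over the growing libraries, and the score of a chromosome was the first principal component (PC1) of its distance-corrected contact pattern, turned so that gene-dense bins are positive. A bin with a positive score was called A and one with a negative score B. An island was a run of 1 to 5 A bins with a run of at least 8 B bins on each side. Chromosomes 1 to 22 held 83 islands with 201 bins (24.12 Mb), which is 0.911% of the 22072 bins with data. These bins formed 5835 pieces of at most 5 bins, and the islands were 83 of them. The 5 Hi-C libraries came from IMR90 cells, human diploid lung fibroblasts, at passage 20 to 25 that carried the ER:HRAS(G12V) vector, an oncogenic HRAS fused to the oestrogen receptor. The 3 growing libraries had no 4OHT, and the 2 libraries of RAS-induced senescence (RIS) had 100 nM 4OHT for 6 days. The label of growing replicate 3 also lists an MSCV vector. All 5 libraries carried the ER:HRAS(G12V) vector, the controls included.

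Chromosomes fold so that active, gene-rich A chromatin contacts other A chromatin and inactive B chromatin, often at the nuclear lamina, contacts other B chromatin. In oncogene-induced senescence lamina contacts are known to loosen, and heterochromatin can gather into senescence-associated heterochromatic foci. A short A stretch inside B chromatin has B neighbours along the DNA and A partners further away, so its contacts can be read against both.

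Recovered whole contacts numbered 154327477, 175413938 and 180775315 for growing replicates 1 to 3, while the RIS pair had 109979310 and 150698039. The share of contacts between chromosomes was 7.05% to 7.56% in growing libraries and 9.6% to 9.81% in RIS libraries, and its part in the results was not tested. In each library an island was seen in at least 1139 contacts with its flanks and at least 118 with distant A bins.

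Islands lay on 20 chromosomes, most often on chromosome 3 with 10. Of the 83, 20 were 1 bin long, 32 had 2 bins, 14 had 3, 10 had 4 and 7 had 5. The B runs beside them had a median length of 1.74 Mb and reached 9.6 Mb. In 29 islands a B run was shared with another island, so their flanks are not independent. A protein-coding transcription start site (TSS) was present in 59 islands, 11 lay inside a coding gene without its TSS and 13 touched no coding gene. The islands held 202 coding TSS, or 1.05% of those on chromosomes 1 to 22, and the gene-densest island, on chromosome 19 with ETV2 and KMT2B, a histone H3K4 methyltransferase, held 34.

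In base composition the islands were between their flanks and long A runs. G and C bases made up 40.4% of island sequence, against 38.7% in the 8 bins on each side and 43.0% in A runs of 8 or more bins. There were 10.6 CpG dinucleotides per kb in islands, 7.98 in flanks and 11.9 in long A runs. Coding TSS numbered 8.39 per Mb in islands, 3.43 in flanks and 10.3 in long A runs. Matches to the CTCF core motif, which CTCF binds at loop anchors, numbered 0.229 per 100 kb in islands and 0.180 in flanks. CpG density exceeded that of the island's own flanks in 64 of 83 islands and GC content in 54, and CTCF core density did so in 32. Gene density had set the sign of the score, so the higher TSS density is not a finding of its own.

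Promoters of 3 island genes are shown because their islands had among the largest changes in RIS. FIGN stood in an island that lost A preference, ZNF83 in an island that gained it, and KLHL2 in an island that lost contact with its flanks. Each sequence was read from GRCh37 from 250 bases before to 50 after the TSS, 5′ to 3′, and capitals mark CG dinucleotides.
FIGN promoter (chr2:164592473-164592772, minus strand): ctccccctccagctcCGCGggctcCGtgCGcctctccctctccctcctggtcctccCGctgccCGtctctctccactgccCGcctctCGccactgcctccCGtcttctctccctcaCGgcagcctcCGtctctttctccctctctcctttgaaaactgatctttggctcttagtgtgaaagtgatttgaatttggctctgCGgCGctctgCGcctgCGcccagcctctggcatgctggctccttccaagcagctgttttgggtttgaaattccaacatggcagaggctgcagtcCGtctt
ZNF83 promoter (chr19:53193763-53194062, minus strand): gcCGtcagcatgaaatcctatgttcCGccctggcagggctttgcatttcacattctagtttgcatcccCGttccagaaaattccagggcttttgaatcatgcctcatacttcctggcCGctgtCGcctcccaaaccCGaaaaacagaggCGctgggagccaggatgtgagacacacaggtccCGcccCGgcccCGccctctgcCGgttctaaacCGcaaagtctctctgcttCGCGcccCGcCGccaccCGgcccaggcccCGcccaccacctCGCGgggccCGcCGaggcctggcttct
KLHL2 promoter (chr4:166128463-166128762, plus strand): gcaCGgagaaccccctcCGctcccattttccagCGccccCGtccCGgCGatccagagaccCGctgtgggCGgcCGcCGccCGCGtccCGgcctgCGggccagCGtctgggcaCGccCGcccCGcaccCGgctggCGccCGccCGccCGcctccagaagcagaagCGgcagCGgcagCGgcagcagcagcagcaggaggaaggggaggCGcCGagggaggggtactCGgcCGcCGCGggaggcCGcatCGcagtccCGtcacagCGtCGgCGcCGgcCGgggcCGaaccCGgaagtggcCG
The FIGN promoter held 16 CG dinucleotides and no GC box, here the letters GGGCGG on either strand, which also contain a CG. The ZNF83 and KLHL2 promoters held 22 and 43 and at least 1 GC box each. Over all 202 island promoters the median was 22 CG dinucleotides and 58.4% held a GC box, against 18 and 52.4% of the 19229 coding promoters. These matches describe the sequence only.

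The scores of the islands in growing cells chose them and are given as a description. Their mean score in the growing average ran from 0.0045 to 1.46 times the SD of the chromosome, with a median of 0.45. The highest belonged to the islands of MSC, a basic helix-loop-helix transcription factor, and ARRDC3, an arrestin-domain protein, at 1.46 and 1.32. Among the islands of 5 bins, each 600 kb long, those with PTPRG, CCNG1, QKI, LMBR1, IPMK or ETV2 scored 0.33 to 1.12. Just inside the threshold lay chr14:42600001-42720000 at 0.0045 and chr1:175920001-176040000 at 0.014. Just outside lay chr4:131280001-131400000 at -0.0061 and chr1:189960001-190080000 at -0.0076. The flank rule left out 32 short A runs with a flank of 7 bins and kept 18 islands with a flank of 8, and the length rule left out 7 A runs of 6 bins.

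In RIS 16 of the 83 islands had a mean score below 0. The median score over islands was 0.45, 0.47 and 0.57 across growing replicates 1 to 3, compared with 0.41 and 0.42 in the RIS libraries. Islands with a mean above 0 numbered 82, 83 and 82 in the growing libraries against 68 and 71 in the RIS libraries. The rule required a positive score in the average of these growing libraries, so their counts were near 83 by construction and the count could hardly rise. Among the 16, 5 of the 16 had growing scores of 0.0045 to 0.087. Among the 16 islands below 0 were those at NEGR1, LRP1B and FIGN, and 13 of the 16 held no coding TSS. In the opposite direction the CXADR island went from 0.22 to 0.70. The share of A bins on all chromosomes was 49.2% in the growing average and 54.3% in the RIS average. Applied to the RIS average, the rule found 73 islands, and 49 of the 83 overlapped one of them. With the rule on growing replicates 1 to 3 alone, 71, 74 and 57 of the 83 overlapped an island. With RIS replicates 1 and 2 alone 44 and 49 did.

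**Figure D1:**
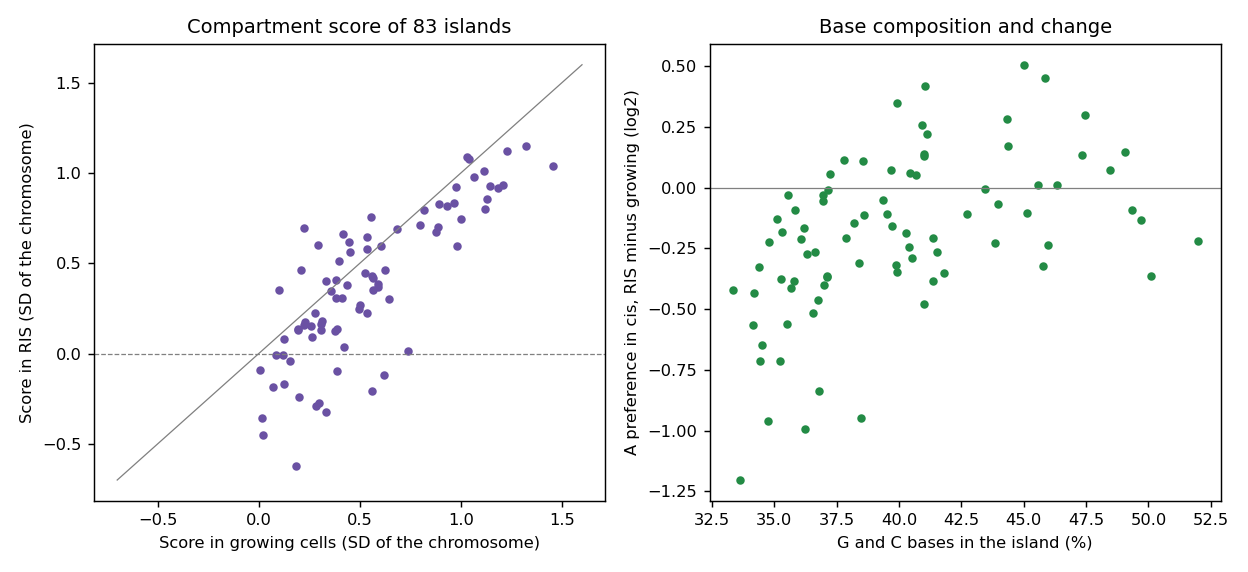
Left, mean compartment score of each of the 83 islands in the growing average (x) and the RIS average (y), in units of the SD of the chromosome, with the line of equal values; 16 islands lie below the dashed line at 0 in RIS. Right, G and C content of each island (percent) against its change of A preference in cis, RIS minus growing (log2); the 5 islands with the lowest changes hold 33.6% to 38.5% G and C.

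Contacts of the islands with their flanks were measured as the log2 of observed over expected contacts, where expected is the mean of the chromosome at the same distance. Each of 6 measures was compared between RIS and growing libraries with limma over all pieces, and pieces were called at an adjusted p under 0.05. The authors call the Hi-C replicates biological, but the labels do not say that they were separate cultures. The p-values therefore measure the spread between these libraries, which may be technical. Growing contacts within chromosomes (in cis), those with flanks, across the island and with distant bins alike, entered the score that chose the islands and the A and B bins. Changes in all cis contacts may therefore be partly fixed by the choice, and their counts and p-values, also those of single islands, are a description. Islands named for a large change were taken first from those without overlap between conditions, so that lack of overlap is partly set by the choice. In flank contact 33 islands were lower in RIS and 8 higher, whereas over all pieces 24.6% were lower and 28.8% higher. In islands this was 39.8% and 9.64%, in pieces of long B runs 42.6% and 17.8% and in pieces of long A runs 18% and 34%. The median over islands was -0.56, -0.52 and -0.57 across growing replicates 1 to 3, compared with -0.56 and -0.59 in RIS replicates 1 and 2. These library medians overlapped between conditions. Within islands the median change was -0.075, with 62 of 83 below 0, against 0.018 over all pieces. Pieces of long B runs also fell, by a median of -0.053, and pieces of long A runs rose by 0.043. Between libraries with few duplicate reads (growing 1 and 2, RIS 1) the median island change was -0.067 and between those with many (growing 3, RIS 2) -0.071. After quantile normalization 24 were lower and 14 higher, against 23.7% and 28.6% of all pieces.

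**Figure D2:**
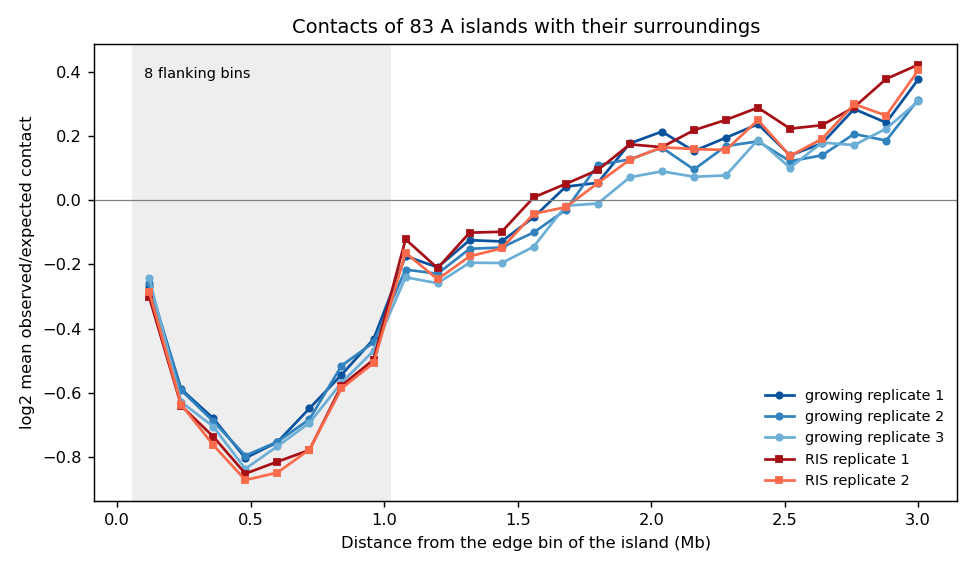
Log2 mean observed over expected contact (y) between the edge bin of the 83 islands and each bin up to 3 Mb outside it (x, Mb), one line per library, with the 8 flanking bins shaded. At 0.72 Mb, the flanking bin with the widest gap, the growing libraries lie between -0.69 and -0.65 and both RIS libraries at -0.78. At 0.24 Mb the growing libraries lie between -0.63 and -0.59 and both RIS libraries at -0.64. At 1.08 Mb and at 3 Mb the RIS libraries are the highest.

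The deepest loss of flank contact was at YTHDF3 (chr8:64080001-64200000), which encodes a reader of N6-methyladenosine in mRNA. Flank contact there was -0.91, -0.99 and -0.97 across growing replicates 1 to 3, compared with -1.52 and -1.39 in RIS replicates 1 and 2. Both RIS values were below every growing value, and the change was -0.50 ± 0.043 (SE, limma adjusted p = 0.000121). Its A preference in cis, -0.18, -0.008 and 0.27 in growing libraries and 0.015 and -0.064 in RIS libraries, overlapped between conditions. The island of TMEM192, KLHL2, GK3, MSMO1 and CPE (chr4:166080001-166320000) includes a lysosomal membrane protein, an adaptor of a ubiquitin ligase and an enzyme of cholesterol synthesis. Its flank contact was -1.05, -1.02 and -0.97 in growing libraries and -1.48 and -1.43 in RIS libraries. The libraries did not overlap, and it fell by 0.44 ± 0.035 (adjusted p = 0.000114).

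At C14orf28, KLHL28, TOGARAM1, PRPF39, FKBP3 and FANCM (chr14:45360001-45720000), genes that include a splicing factor and a DNA repair helicase, flank contact was -1.46, -1.49 and -1.52 in growing libraries and -1.92 and -1.93 in RIS libraries. This was the lowest flank contact among the named islands in both conditions, and the fall of 0.43 ± 0.031 had an adjusted p of 8.85e-05. The island of EFHB, RAB5A, PP2D1 and KAT2B (chr3:19920001-20160000), with an early endosome GTPase and a histone acetyltransferase, went from -0.68, -0.66 and -0.68 to -1.09 and -1.03. No RIS library reached a growing one (change -0.39 ± 0.031, adjusted p = 0.000114). An island without a coding gene, chr4:132840001-133080000, had -0.21, -0.24 and -0.18 in growing libraries and -0.67 and -0.56 in RIS libraries (change -0.40 ± 0.038, adjusted p = 0.000141). In these 5 islands A preference in cis was not called, with adjusted p from 0.0854 to 0.767, while A preference in trans was called lower at TMEM192 and C14orf28. Over all islands flank contact was called lower with A preference in cis not called in 17, with A preference called lower in 11 and with it called higher in 5. Over all pieces these shares were 7.22%, 13.3% and 4.08%, against 20.5%, 13.3% and 6.02% of islands.

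Flank contact rose most at chr11:5280001-5400000, which holds the olfactory receptor genes OR51B4, OR51B2 and OR51B6. Growing libraries had -0.36, -0.43 and -0.53, and RIS libraries 0.099 and 0.065. RIS values were above 0 and growing values below it (change 0.52 ± 0.045, adjusted p = 0.000121). Its pre-balancing coverage relative to the median bin also changed most among the islands, by -0.22 on the log2 scale, and the part of this in the result was not tested. DRAM1 (chr12:102240001-102360000), a lysosomal protein of p53-dependent autophagy, went from -0.050, -0.12 and -0.15 to 0.23 and 0.12 (change 0.28 ± 0.043, adjusted p = 0.000722). The libraries of the 2 conditions did not overlap there either. Smaller rises were called at DPYSL3, a cytoskeletal protein of growing axons, at ICE1, a subunit of an elongation complex, and at VRK2, a kinase, by 0.17, 0.15 and 0.15. With 4 in place of 8 flanking bins DPYSL3 turned to -0.060 and ICE1 was no longer called (0.10, adjusted p = 0.0513).

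Distant contacts were measured with A or B bins of the same chromosome more than 2 Mb away. Distant A contact was lower in 16 islands and higher in 6. Over all pieces 42.2% were lower and 7.37% higher. In islands 19.3% were lower, in pieces of long A runs 34.8%, in other A pieces 25.5% and in pieces of long B runs 66.6%. The median island change was -0.089, and the median over all pieces -0.14. The island median was -0.044 without RIS replicate 2 and -0.049 without growing replicate 3. Medians over islands were 0.28, 0.26 and 0.30 in growing libraries and 0.28 and 0.20 in RIS libraries, which overlapped. Without RIS replicate 2 the called islands fell from 22 to 14. After median centring 14 were lower and 14 higher, against 34.2% and 13.6% of all pieces. After quantile normalization the median change was -0.0077. The median island change was -0.028 between libraries with few duplicates and -0.15 between those with many.

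Distant B contact was higher in 34 islands and lower in 13. Over all pieces 27% were higher and 35.1% lower. The median over islands was -0.072, -0.091 and -0.12 in growing libraries and 0.12 and 0.076 in RIS libraries. Both RIS medians were above all growing medians, and the median change was 0.11 against -0.048 over all pieces. In the 49 short B runs inside A blocks, the mirror of the islands, the median change was -0.38, with 67.3% lower. Pieces of long B runs rose by 0.23 and pieces of long A runs fell by 0.27, a contrast for which no test was made. The median of all pieces in a library was 0.10 to 0.12 in growing and -0.055 and -0.037 in RIS libraries. Median centring therefore raised all RIS values against growing. After it 50 islands (60.2%) were higher and 2 lower, against 42.2% and 23.7% of all pieces. Without RIS replicate 1 or RIS replicate 2 the called islands fell from 47 to 30 in each case. The increase was called without a call in distant A contact in 26 islands and with a fall of distant A contact in 5, those of NEGR1, LRP1B, FIGN, TMA16 and OR51B4. Over all pieces these shares were 11.1% and 14.6%, against 31.3% and 6.02% of islands. When the B bins were restricted to the 20% with the lowest score of each chromosome, the median turned to -0.067.

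The difference between distant A and distant B contact is the A preference in cis, where a positive log2 ratio means more contact with A. It was lower in RIS in 29 islands and higher in 5. Over all pieces 30.5% were lower and 22.2% higher. In islands the shares were 34.9% and 6.02%, in pieces of long A runs 8.91% and 33.7%, in other A pieces 12.3% and 27.3% and in pieces of long B runs 69.2% and 3.38%. These shares were not compared by a test. Its median over islands was 0.27, 0.21 and 0.38 in growing libraries and 0.12 and 0.099 in RIS libraries. The RIS medians were below all growing medians, and the median change was -0.19 against -0.037 over all pieces. The island median was -0.15 between libraries with few duplicates and -0.24 between those with many. Pieces of long A runs rose by 0.17 and pieces of long B runs fell by 0.54. Islands with a positive mean numbered 64 in growing cells and 48 in RIS. Other A pieces with one numbered 836 and 840 of 1045, and all pieces 2657 and 2747 of 5835. The islands had a positive score in growing cells by choice, so their count had more room to fall. In the short B runs inside A blocks the measure moved the other way from the islands, by a median of 0.42, with 65.3% higher and positive means in 9 in RIS. Calls numbered 15 without RIS replicate 1, 15 without RIS replicate 2 and 22 without growing replicate 2, against 34 with all, while the median change stayed between -0.20 and -0.19. Where 1 RIS library is left, it is assumed to vary as the growing libraries do. The median of all pieces in a library was -0.34 to -0.29 in growing and -0.20 to -0.13 in RIS libraries. The median change of a piece was -0.037, so the pieces did not share this rise of the library medians. Median centring set the library medians equal and so lowered all RIS values against growing. After it 46 islands (55.4%) were called, all lower, while over all pieces 41.4% were lower and 13.5% higher. With the highest and lowest 20% of bins the median was -0.048, and 17 islands were lower and 10 higher, against 23.4% and 34.3% of all pieces.

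**Figure D3:**
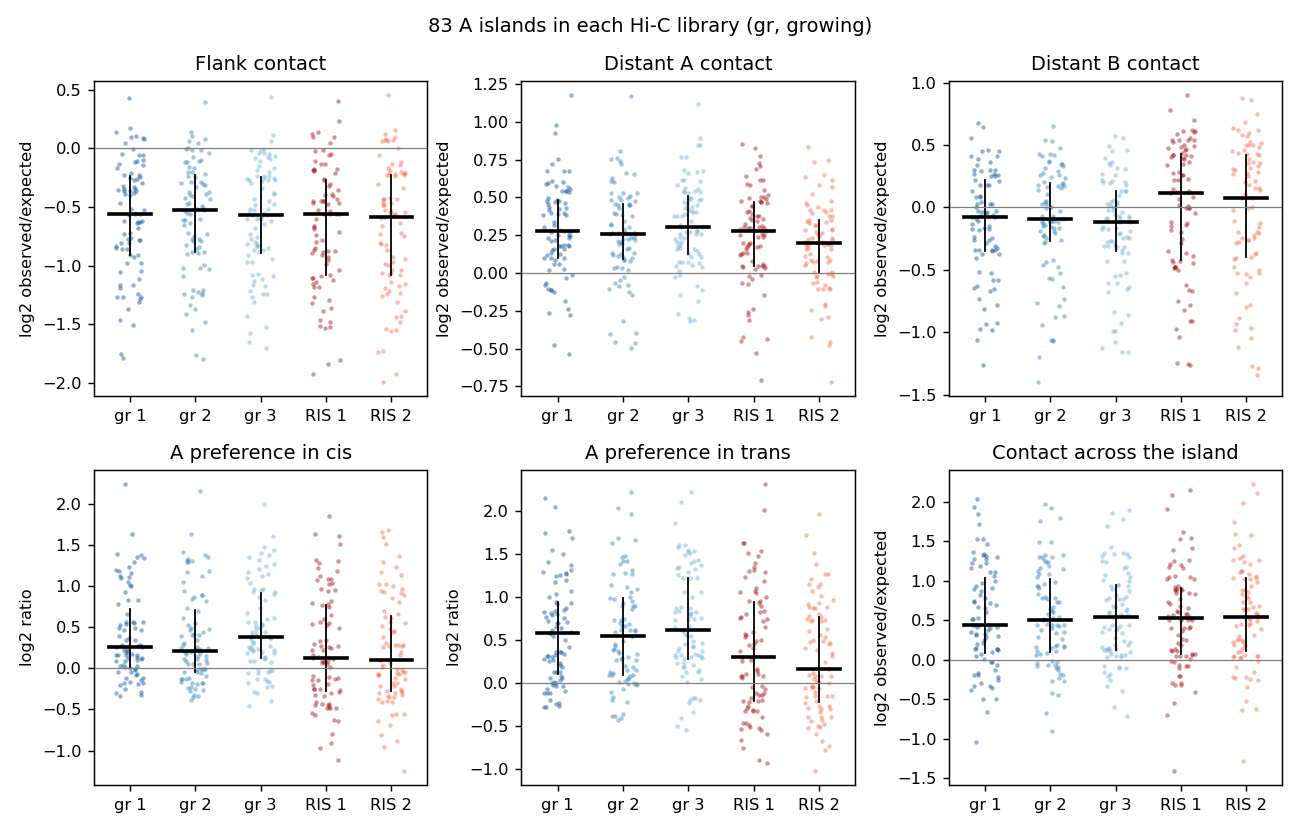
Values of the 83 islands (points) in each library for the 6 measures, with the median (thick line) and the interquartile range (thin line); y axes are log2 observed over expected contact or, for the A preferences, log2 ratios. The RIS medians lie above all growing medians in distant B contact and below them in both A preferences.

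The largest fall in A preference in cis was inside NEGR1 (chr1:72600001-72720000), a cell adhesion protein of neurons. Growing libraries had -0.043, -0.13 and 0.24, and RIS libraries -1.12 and -1.24. The RIS values lay far below the growing ones, and the change was -1.20 ± 0.13 (0.434-fold, limma adjusted p = 0.000126). Distant A contact fell there by 0.71 and distant B contact rose by 0.50, both called. The next was FIGN (chr2:164520001-164640000), a microtubule-severing ATPase, with 0.26, -0.055 and 0.26 in growing libraries and -0.80 and -0.88 in RIS libraries. Again no libraries overlapped (change -0.995 ± 0.12, adjusted p = 0.000251).

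Inside LRP1B (chr2:141600001-141840000), a member of the low-density lipoprotein receptor family, A preference in cis was 0.49, 0.24 and 0.61 in growing libraries and -0.47 and -0.56 in RIS libraries. Values changed sign between the conditions, by -0.96 ± 0.12 (adjusted p = 0.000335). The OR51B4 island went from 0.28, 0.46 and 0.84 to -0.44 and -0.41 (change -0.95 ± 0.15, adjusted p = 0.00117). It was the island in which flank contact rose most. The island of TMA16, a ribosome assembly factor, and MARCHF1, a ubiquitin ligase of membrane proteins (chr4:164400001-164640000), went from -0.29, -0.16 and 0.38 to -0.91 and -0.81 (change -0.84 ± 0.18, adjusted p = 0.00505). Growing replicate 3 stood above the other growing libraries there, and the conditions did not overlap. All 5 falls kept an adjusted p under 0.05 under each alternative in which the island was tested.

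A preference in cis rose in the islands of ZNF701, LMBR1, CXADR, NEK10 and TMEM186, and flank contact fell in each of these 5. The island of the zinc finger genes ZNF701, ZNF83 and ZNF611 (chr19:53040001-53280000) had -0.013, -0.38 and 0.12 in growing libraries and 0.54 and 0.29 in RIS libraries (change 0.51 ± 0.16, adjusted p = 0.0238). The island of LMBR1, NOM1, MNX1, UBE3C and DNAJB6 (chr7:156600001-157200000), which include a motor neuron homeobox factor and a ubiquitin ligase, had 0.56, 0.39 and 0.67 in growing libraries and 1.09 and 0.90 in RIS libraries (change 0.45 ± 0.12, adjusted p = 0.0114). In both islands the RIS libraries were the 2 highest. At LMBR1 distant A contact fell by 0.26 and distant B contact by 0.71, so the ratio rose while both contacts dropped.

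CXADR (chr21:18720001-18960000), an adhesion protein of tight junctions and the coxsackievirus receptor, had an A preference in cis of 0.024, -0.24 and -0.39 in growing libraries and 0.27 and 0.16 in RIS libraries (change 0.42 ± 0.13, adjusted p = 0.0256). Its distant A contact rose too, from 0.47, 0.29 and 0.18 to 0.61 and 0.58 (change 0.29 ± 0.086, adjusted p = 0.0153), and its flank contact fell by 0.24. None of these measures overlapped between conditions. At NEK10, a kinase, and SLC4A7, a bicarbonate transporter, A preference in cis rose by 0.35, and at TMEM186, PMM2, CARHSP1 and USP7, which include a deubiquitinase, by 0.30. Without growing replicate 2 only 1 island was called higher in A preference in cis, against 5 with all libraries. None of the 5 rises stayed below an adjusted p of 0.05 after median centring or quantile normalization, where the adjusted p ran from 0.0507 to 0.486, and all 5 kept their direction. Without RIS replicate 1 none was called by limma, with changes of 0.26 to 0.38 and adjusted p from 0.0773 to 0.206.

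**Figure D4:**
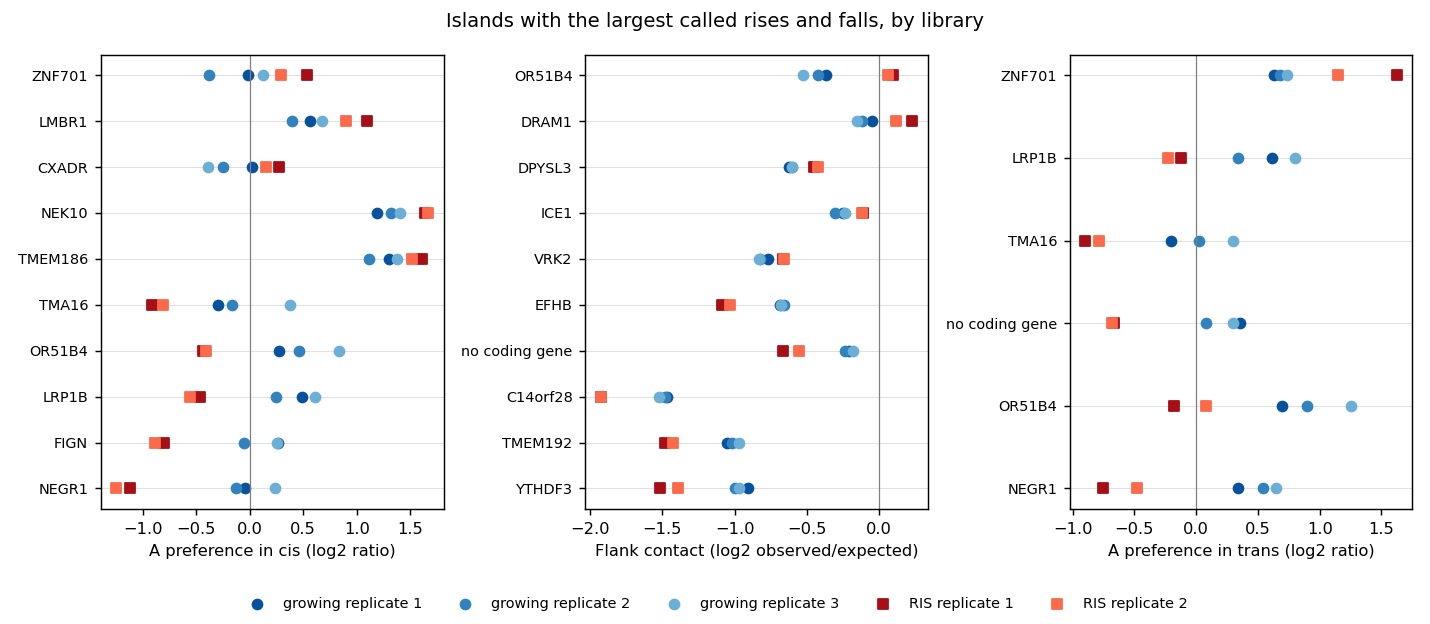
Value in each library (circles, growing; squares, RIS) of the islands with the largest called rises and falls in A preference in cis, flank contact and A preference in trans, on log2 scales. No growing library overlaps a RIS library in any row, but islands without overlap were taken first. ZNF701 is the single called rise in trans.

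Contacts between chromosomes did not enter the rule or the score directly, but they were balanced together with the cis contacts. Both the islands and the A and B bins were still chosen by the growing score, so changes here may also be partly fixed. Counts and p-values in trans are therefore a description too. A preference in trans is the log2 ratio of the mean contact with A bins over that with B bins of the other autosomes. It was lower in 36 islands and higher in 1. Over all pieces 29.2% were lower and 7.61% higher, and in islands 43.4% and 1.2%. Pieces of long A runs were lower in 34.1% and pieces of long B runs in 43.4%. The median over islands was 0.57, 0.54 and 0.62 in growing libraries and 0.30 and 0.16 in RIS libraries. The conditions did not overlap, and the median change was -0.27 against -0.16 over all pieces. It was -0.24 in pieces of long A runs and -0.27 in pieces of long B runs. In other A pieces it was -0.091 and in other B pieces 0.089. Islands with a positive mean numbered 73 in growing cells and 51 in RIS. Other A pieces with one numbered 943 and 892 of 1045, and all pieces 2926 and 2999 of 5835. The island count again had more room to fall than to rise. The larger share of contacts between chromosomes in RIS libraries moved with the fall in A preference in trans, and its part was not tested. In 24 islands (28.9%) both A preferences were called lower, against 19% of all pieces. In the short B runs inside A blocks A preference in trans moved toward 0 too, by a median of 0.22. Without growing replicate 2 the called islands fell from 37 to 24. The median change was -0.21 between libraries with few duplicates and -0.44 between those with many.

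The largest fall in trans was again inside NEGR1, from 0.34, 0.54 and 0.65 in growing to -0.76 and -0.48 in RIS libraries (change -1.13 ± 0.13, adjusted p = 0.002). All growing values were positive and both RIS values negative. The OR51B4 island went from 0.69, 0.90 and 1.26 to -0.18 and 0.079 (change -0.998 ± 0.16, adjusted p = 0.00238). An island with no coding gene on chromosome 13 (chr13:83640001-83880000) went from 0.36, 0.078 and 0.30 to -0.67 and -0.68 (change -0.92 ± 0.12, adjusted p = 0.002). TMA16 and LRP1B followed with -0.88 and -0.76, and none of the 5 overlapped between conditions. The rise at ZNF701 went the other way, from 0.63, 0.68 and 0.74 to 1.62 and 1.15 (change 0.71 ± 0.14, adjusted p = 0.00457). RIS replicate 1 was the highest, and both RIS libraries were above the growing ones.

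Contact across the island, between the 8 bins on its left and the 8 on its right, was higher in 18 islands and lower in 16. Over all pieces 23.2% were higher and 25.7% lower, close to 21.7% and 19.3% in islands. Its median was 0.44, 0.51 and 0.54 in growing libraries and 0.53 and 0.54 in RIS libraries, which overlapped, and the median change was 0.035. After median centring 14 were higher and 20 lower, against 18.4% and 30.7% of all pieces, and the median turned to -0.0049. The island at NEK10 and SLC4A7 had 0.53, 0.51 and 0.57 in growing libraries and -0.023 and 0.025 in RIS libraries, so its 2 flanks lost contact with each other (change -0.54 ± 0.048, adjusted p = 0.00101). The flanks of the OR51B4 island gained contact, from 0.73, 0.78 and 0.77 to 1.07 and 1.12 (change 0.34 ± 0.048, adjusted p = 0.00321). Neither island overlapped between conditions. Without growing replicate 2, RIS replicate 1 or RIS replicate 2 the called islands fell from 34 to 18, 19 and 19.

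Calls are given here by the number of coding TSS in the island, as a description with no test between the classes. Over all pieces flank contact was lower in 24.6% and higher in 28.8%, A preference in cis lower in 30.5% and higher in 22.2%, and A preference in trans lower in 29.2%. In the 23 islands with 4 or more TSS flank contact was called in 13, all lower, while A preference in cis was lower in 1 and higher in 3. Their median A preference in cis was 0.53, 0.39 and 0.56 in growing libraries and 0.54 and 0.46 in RIS libraries, which overlapped. In the 24 islands without a coding TSS flank contact was lower in 5 and higher in 1, while A preference in cis was called in 13, all lower. Their median went from 0.16, 0.018 and 0.20 to -0.29 and -0.26, and their distant B contact from -0.058, -0.011 and -0.062 to 0.40 and 0.34. In the 36 islands with 1 to 3 TSS A preference in cis was lower in 15 and higher in 2, and flank contact was lower in 15 and higher in 7. A preference in trans was called lower in 7 of 23 islands with 4 or more TSS, 18 of 36 with 1 to 3 and 11 of 24 with none, with median changes of -0.19, -0.32 and -0.31. In the class with 4 or more the library medians overlapped, with 0.75, 0.74 and 0.87 in growing libraries and 0.83 and 0.72 in RIS libraries. By size, A preference in cis was called lower in 9 of 20 islands of 1 bin and 13 of 32 of 2 bins. With 3, 4 and 5 bins it was lower in 1 of 14, 5 of 10 and 1 of 7. Size and number of TSS were not separated.

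Over the 83 islands the change of A preference in cis had a Spearman correlation of 0.37 with the number of coding TSS, 0.56 with GC content and 0.59 with the change of coverage before balancing. The changes in cis and in trans correlated at 0.78. All islands were read in the same 5 libraries, so these values describe the islands and carry no test. Coverage of the islands relative to the median bin was lower in RIS by a median of 0.059 on the log2 scale, with a range from -0.22 to 0.17. The part of coverage in the results was not tested.

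**Figure D5:**
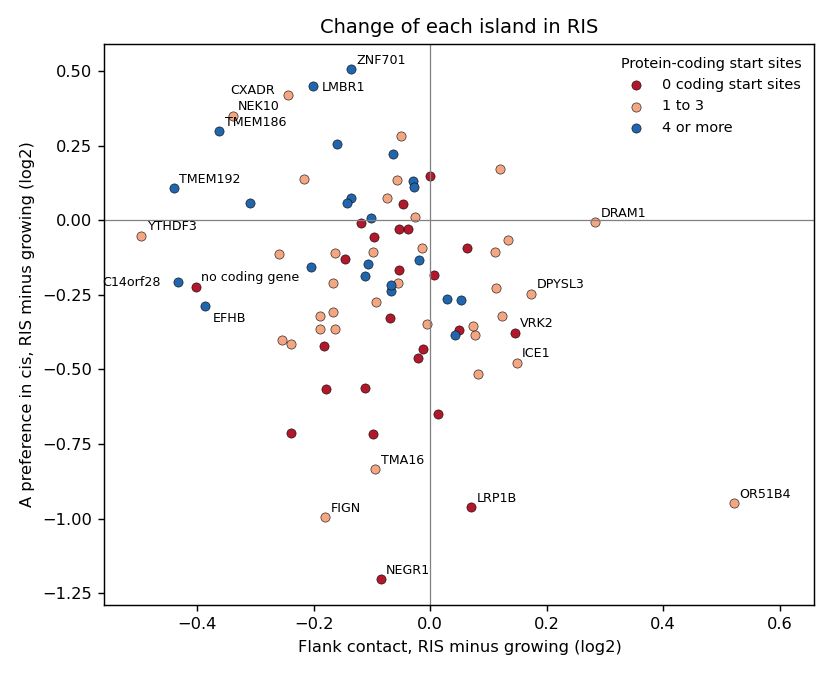
Change of flank contact (x) and of A preference in cis (y) for each of the 83 islands, RIS minus growing on log2 scales, coloured by the number of protein-coding start sites; named are the islands with the largest called changes. Of the 23 islands with 4 or more start sites 13 fell in flank contact by the limma call, and NEGR1, FIGN, LRP1B and OR51B4 have the lowest A preference changes.

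Islands also met each other. With other islands more than 2 Mb away on the same chromosome, 80 islands had contacts in every library, and the median was 0.75, 0.75 and 0.88 in growing libraries and 1.19 and 1.16 in RIS libraries. This was above expected in every library and higher in both RIS libraries than in any growing one. The islands share the A pattern of the growing score, so a level above expected is partly set by the choice. The median change was 0.30, and 50 of the 80 islands were above 0. With long A runs the median fell from 0.077, 0.066 and 0.15 to -0.038 and -0.061, and with long B runs it went from -0.16, -0.13 and -0.18 to 0.12 and 0.062. Neither overlapped between conditions, and these cis contacts too are with runs defined by the growing score. Few bins enter the island to island values, and each pair of islands counts for both of its members. Contacts among other short A pieces are not given for comparison, and no test was made.

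The median change was largest beyond 50 Mb, at -0.14 with A bins and 0.12 with B bins, and no test was made between distances. In the bands from 5 to 50 Mb it ran from -0.10 to -0.016 with A bins. With B bins it ran from -0.011 to 0.081 there. Beyond 50 Mb the median contact of 77 islands with A bins was 0.34, 0.26 and 0.40 in growing libraries and 0.27 and 0.19 in RIS libraries. With B bins it was -0.21, -0.15 and -0.27 for 76 islands and then -0.049 and -0.027. The RIS libraries were the highest with B bins, and with A bins they overlapped the growing ones. From 2 to 5 Mb contact with A bins did not move the same way, with a median change of 0.094 and 51 of 77 islands above 0. Contacts between bins of the same island had a median change of 0.0030 over the 63 islands with 2 or more bins.

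Genes of the listed pathways were rare in islands, as coding genes were in general. Of the 56 annotated SASP genes, the secreted factors of senescent cells, 0 overlapped an island, and so did 0 of 56 extracellular matrix genes and 0 of 54 cell cycle genes, against 1.25% of all 19229 coding genes. From the neural adhesion and channel genes 3 of 101 did (2.97%), NEGR1, PCDH7 and ROBO2, and from the patterning and fibroblast transcription factors 1 of 109, TSHZ3. PCDH7, a protocadherin, had an A preference in cis of 0.19, 0.24 and 0.38 in growing libraries and -0.15 and -0.084 in RIS libraries (change -0.39 ± 0.099, adjusted p = 0.011). Its island gained distant B contact by 0.56 (adjusted p = 0.000728), and the conditions did not overlap in either. ROBO2, a receptor for axon guidance, had an A preference change of -0.091 (adjusted p = 0.435), and TSHZ3, a zinc finger factor, of -0.10 (adjusted p = 0.512).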

How the data were processed

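Hi-C was read from 5 libraries, 3 growing and 2 RIS. The authors aligned reads to hg19 (GRCh37) with HiC-Pro and deposited contact signal balanced by ICE in 40 kb bins. Whole contacts were recovered from the deposited signal. Small values were all whole within a tolerance of 0.05, and for larger ones the tolerance grew with the value. Signal was summed to 120 kb bins holding at least 2 of 3 valid 40 kb bins, and divided by the chromosome mean at the same distance. PC1 gave the score. Every run of one sign was divided into pieces of at most 5 bins, and 6 contact measures were compared per piece, RIS minus growing, with limma 3.58.1 (R 4.3.3) and Benjamini-Hochberg adjustment over all pieces. Other steps used Python 3.11.15, numpy 2.4.6, scipy 1.17.1 and pandas 2.3.3, and the fit was tested on simulated data.

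Flank contact used 8 bins on each side with at least 5 holding data, and distant contact at least 20 bins beyond 2 Mb. Named islands were those with the 5 largest called rises and falls in A preference in cis, flank contact and A preference in trans, those holding a listed gene, the longest, the highest scoring and those beside a threshold. Among the rises and falls, islands without overlap between the libraries of the 2 conditions were taken first. Protein-coding genes and promoters were taken from the reference tables and genome of GRCh37. 1 of the longest islands and some promoter sequences are not reported here. The members and lists were chosen with earlier results of these data known. Alternatives covered scaling, distance, flank width, the choice of A and B bins, the rule for members, blocks and single libraries left out. The 4 capture Hi-C libraries of the series were not used here. Depth was 109979310 to 180775315 contacts per library, which limits the precision of islands with few contacts.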

Additional observations from a re-analysis of the deposited data

How the results depend on the processing

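With each library left out in turn, the median island change ran from -0.080 to -0.064 in flank contact (36 to 42 islands called), from -0.11 to -0.044 in distant A contact (14 to 21), from 0.10 to 0.17 in distant B contact (30 to 48), from -0.20 to -0.15 in A preference in cis (15 to 33), from -0.33 to -0.24 in A preference in trans (24 to 34) and from 0.022 to 0.054 across the island (18 to 30). Median centring gave medians of -0.026 in distant A contact, 0.27 in distant B contact, -0.34 in A preference in cis and -0.0049 across the island, where the sign turned. Quantile normalization gave -0.031 in flank contact, -0.0077, 0.27 and -0.35 in the same 3 distant measures, and -0.0012 across the island, again with the sign turned. With 4 bins on each side contact across the island was -0.00045 and flank contact at DPYSL3 -0.060, both of opposite sign to the reported values. With the highest and lowest 20% of bins, distant A contact was -0.20, distant B contact -0.067 (opposite sign), A preference in cis -0.048 and A preference in trans -0.43. With A and B bins of the same sign in both conditions, distant B contact was 0.14 and A preference in trans -0.34. Islands chosen on the RIS mean gave -0.099 in flank contact, -0.0010 in distant A contact and 0.096 across the island. Islands chosen on a single growing library were compared with that library left out. Islands chosen on growing replicate 1 alone gave 0.070 in distant B contact and -0.12 in A preference in cis. Islands chosen on growing replicate 3 alone gave -0.11 in flank contact and -0.029 in distant A contact, with 10 called in distant A contact and 22 in A preference in trans. Growing replicate 2 alone left 19 called across the island, and an uncentred principal component gave -0.019 in flank contact. The causes were not tested. Shares over all pieces are not given for a library left out, for members chosen another way or for the replicate block. Counts of called islands in these settings therefore do not set the islands apart from other pieces. Contacts per island, as few as 118 with distant A bins, limit the smaller changes.

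The replicate numbers were shared between conditions. Correlations of the deviations of same-numbered libraries had both signs over the measures (from -0.25 to 0.27). With 2 RIS libraries their deviations mirror each other, so these values cannot decide whether libraries were paired. The largest value over all pairs was 0.38, in A preference in trans. It was between growing replicate 3 and RIS replicate 2, the libraries with many duplicate reads. In a fit with the replicate number as a block, growing replicate 3 stood alone in its block. The median changes were therefore the same as without that library, such as -0.049 in distant A contact. In this fit 32 islands were lower and 7 higher in A preference in cis, and 30 lower and 1 higher in A preference in trans.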
